A study of Mus musculus with 22 samples.

Results

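The genes examined here handle ketone bodies and fatty acids as fuel. They are the 8 genes Slc16a1, Bdh1, Oxct1, Angptl4, Cpt1a, Acadm, Pdk2 and Pdk4, out of 23361 genes in the expression matrix. They were chosen by name for their roles, with earlier results of these data known. All 8 had 1 row each and passed the filter on low values, which left 16978 genes for testing. The values are FPKM (fragments per kilobase of transcript, scaled to the mapped fragments of each library), a level per transcript length that allows genes to be set side by side. They come from mRNA sequencing of the microdissected CA1 region of the hippocampus of 22 mice, with 1 library per mouse.

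All mice were females of a Swiss Webster x DBA/C57BL6 F1 cross, with no transgene or deletion in any group. AL mice ate a normal diet without restriction, and CR mice received a daily ration cut specifically in carbohydrates from young adulthood on. The CR mice at 15 months had thus been restricted for longer than those at 5 months. Age and time on the diet cannot be told apart in CR mice. There were 5 mice in each diet group at 5 months and 6 in each at 15 months. CA1 tissue is a mixture of neurons, glia and vessel cells, so that fewer cells of a type and less RNA per cell cannot be told apart in these values.

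Ketone bodies are made by the liver when carbohydrate is short, and the brain burns them in place of part of its glucose. They cross the blood-brain barrier and enter cells through monocarboxylate transporters, and are turned into acetyl-CoA in the mitochondrion by a short chain of enzymes. Long-chain fatty acids enter the same organelle on carnitine and are shortened by beta-oxidation, which in the brain is mostly the work of astrocytes. Pyruvate dehydrogenase kinases close the gate through which pyruvate from glucose reaches the citric acid cycle, and in liver and muscle several of these genes rise in fasting under the nuclear receptor PPAR alpha and glucocorticoids.

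The 4 group means of each gene lay close together, with the highest above the lowest by 4.06% for Oxct1 and by up to 38.7% for Slc16a1. With an adjusted p under 0.05 in limma as the threshold for a call, 1 of 8 was called between any of the groups compared. This was Slc16a1, which fell with age in AL mice by 24.2%, a comparison in which 20.6% of all tested genes were called. The call was lost with marker scores of region or of ependymal cells, described below, as covariates. None of the 8 was called for CR against AL at 5 months, at 15 months or averaged over both ages. Over all tested genes the shares called there were 0%, 0.742% and 0.389%. None of the 8 was called with age in CR mice (3.36% of all tested genes) or in the age by diet interaction (0%). The 8 genes are described in the order of the fuel's path, from the transporter to the mitochondrial gate.

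**Figure D1:**
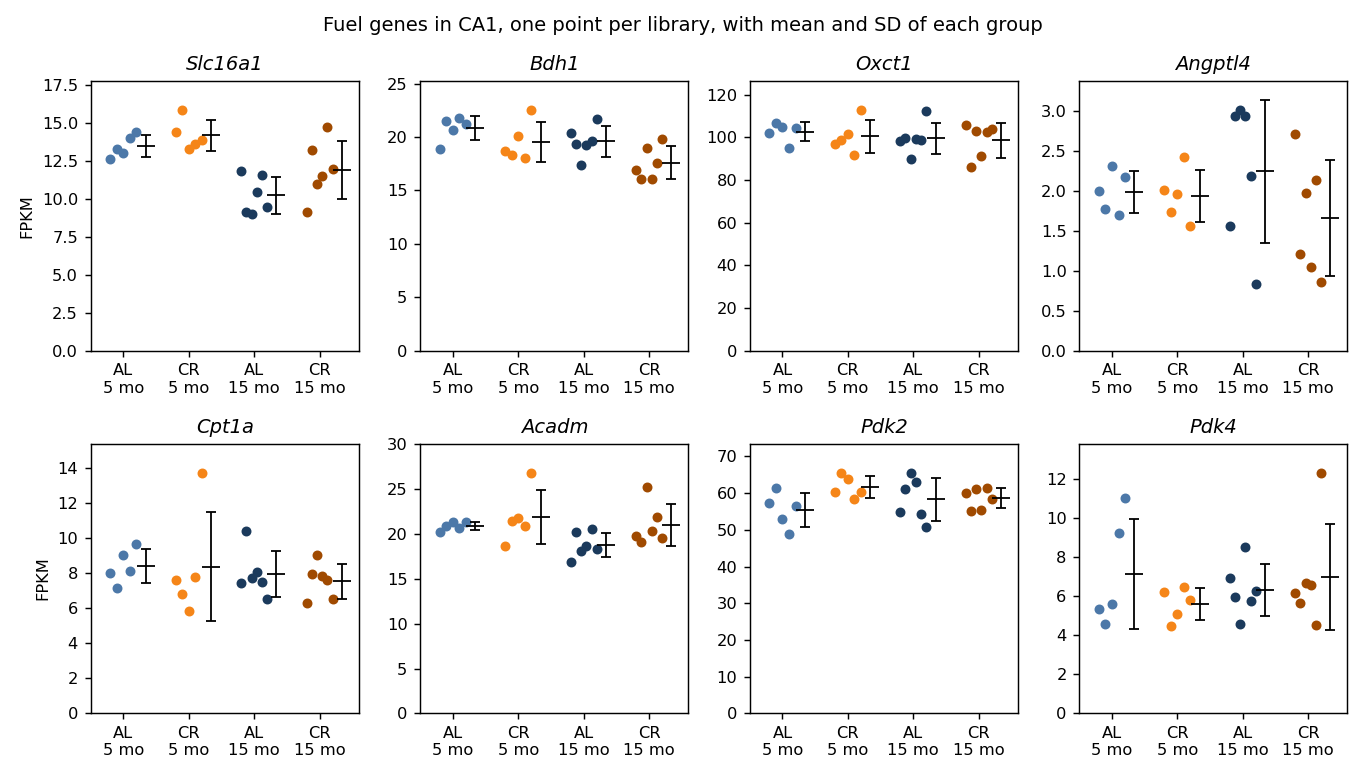
FPKM of each of the 8 genes (y axis, linear and starting at 0) in each library, by group on the x axis, with the mean and SD of each group in black beside its points. The AL libraries at 15 months lie below all AL libraries at 5 months for Slc16a1, and for the other 7 genes the AL libraries of the 2 ages overlap.

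The levels of the 8 genes spanned a wide range. Mean FPKM over the 22 libraries was 100.2 for Oxct1, 58.5 for Pdk2, 20.6 for Acadm, 19.3 for Bdh1, 12.3 for Slc16a1, 8.02 for Cpt1a, 6.53 for Pdk4 and 1.96 for Angptl4. Oxct1, the enzyme that commits ketone bodies to oxidation, stood above 95.9% of all genes in the matrix, whereas Angptl4, a secreted inhibitor of lipoprotein lipase, stood above 46.0%. Oxct1 and Pdk2 also varied least between mice of a group. The within-group SD on the log2 scale was 0.10 for Oxct1, a spread smaller than in all but 6.41% of the tested genes, and 0.11 for both Pdk2 and Bdh1. It was 0.40 for Pdk4 and 0.50 for Angptl4, and 85.5% of the tested genes varied less than Angptl4.

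The libraries were first checked for the tissue they are labelled as. All 8 markers of CA1 pyramidal neurons were present, with mean FPKM from 7.52 to 113. The balance of regions differed between the ages, however, and in its means also between the diets at 15 months. A region score, the mean log2(FPKM + 0.1) of 10 markers of neocortex and subiculum minus that of the 8 CA1 markers, lay between -3.10 and -1.53 in AL mice at 5 months and between -1.29 and 0.04 in AL mice at 15 months. In CR mice it lay between -3.17 and -2.35 at 5 months and between -2.74 and -0.32 at 15 months. The same kind of score over 6 markers of ependymal cells, which line the ventricles, lay between 1.74 and 3.87 over both groups at 5 months and between -0.56 and 1.89 over both groups at 15 months. A library of CR mice at 5 months (replicate 4) stood apart by a choroid plexus score of 4.94 over 10 markers, against 0.16 to 2.80 in the other libraries of its group. For Bdh1, Oxct1, Cpt1a and Acadm, some differences that rest on that library are also given without it. Leaving it out does not remove a wider difference of the choroid plexus score between the ages. In AL mice the score lay between -1.21 and 1.45 at 5 months and between -2.35 and -0.82 at 15 months. In CR mice at 15 months it lay between -2.53 and -1.14. Summed FPKM ranged from 639064 to 1297912, and the median FPKM of the tested genes only from 8.01 to 8.65.

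Slc16a1 encodes MCT1, the proton-linked carrier of lactate, pyruvate and ketone bodies, which the brain holds mainly in endothelium, astrocytes and oligodendrocytes. It lies on chromosome 3 from 104638668 to 104658462 on the plus strand (GRCm38, the build also called mm10). The RefSeq promoter window runs from 250 bases before to 50 bases after the start, at chr3:104638414-104638713 on the plus strand of GRCm38.p6. It is printed 5′ to 3′, since Slc16a1 was the only one of the 8 genes with a called difference.
Slc16a1: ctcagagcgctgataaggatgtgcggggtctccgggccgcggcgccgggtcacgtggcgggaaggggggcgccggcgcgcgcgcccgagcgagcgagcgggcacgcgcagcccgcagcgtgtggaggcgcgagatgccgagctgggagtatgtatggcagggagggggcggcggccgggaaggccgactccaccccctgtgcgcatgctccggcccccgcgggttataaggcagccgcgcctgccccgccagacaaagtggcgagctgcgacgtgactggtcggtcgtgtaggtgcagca
The window held 73.7% G and C and 42 CpG pairs, against medians of 52.7% and 7 over 32851 windows of the same length. Neither of the motifs searched on both strands, AGGTCA (the core bound by PPAR and related nuclear receptors) and AGAACA (the core bound by the glucocorticoid receptor), was found in these letters. Over all windows the shares that held them were 16.3% and 19.0%.

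In AL mice at 5 months the Slc16a1 level was 12.6, 13.3, 13.1, 14.0 and 14.4 FPKM. At 15 months the 6 AL libraries ran from 9.04 to 11.8 FPKM with a median of 9.97. Every older AL mouse thus lay below every younger one, as was the case, in one direction or the other, for 14.0% of all tested genes. The group means were 13.5 ± 0.734 (SD, n = 5) and 10.2 ± 1.24 FPKM (SD, n = 6), a log2 fold change of -0.40 with a standard error (SE) of 0.10 and a 95% interval from -0.61 to -0.20. The limma adjusted p was 0.0076, and the exact two-sided permutation test gave p = 0.00649, where 0.00216 is the smallest this design allows. Calls were frequent in this comparison: 20.6% of all tested genes were called, 9.97% as lower at 15 months, and 1 of the 8 genes was called.

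Slc16a1 in CR mice at 5 months was measured at 14.4, 15.9, 13.3, 13.6 and 13.9 FPKM. In CR mice at 15 months it ran from 9.12 to 14.7 FPKM with a median of 11.7, so that the older libraries overlapped the younger. The means were 14.2 ± 1.02 (SD, n = 5) and 11.9 ± 1.92 FPKM (SD, n = 6), a log2 fold change of -0.26 with a 95% interval from -0.47 to -0.058, which was not called (limma adjusted p = 0.153, exact permutation p = 0.039). Between the diets the log2 fold change was 0.073 at 5 months (95% interval -0.14 to 0.29) and 0.21 at 15 months (95% interval 0.015 to 0.41, limma adjusted p = 0.258, exact permutation p = 0.108). In 5 of 6 CR mice at 15 months the level exceeded the median of the AL mice. The average over both ages was 0.14 (limma adjusted p = 0.427, exact permutation p = 0.0423). The difference between the age effects in AL and CR mice, tested as the interaction, was 0.14 on the log2 scale with a 95% interval from -0.15 to 0.43 (limma adjusted p = 0.823). The decline was therefore called in AL mice and not in CR mice, and a difference between them was not detected.

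In AL mice the scores of region and of ependymal cells differed between the ages, as Slc16a1 did. Without a covariate the log2 fold change of Slc16a1 with age in AL mice was -0.40. Calls over all genes in this comparison fell from 3502 to 14 with the region score and to 160 with the ependymal cell score. With the region score as a covariate the log2 fold change with age in AL mice was -0.33 and no longer called (limma adjusted p = 0.276), and with the ependymal cell score it was -0.39 (limma adjusted p = 0.224). In AL mice the region score did not overlap between the ages and the ependymal cell score overlapped in 1 older library, and their part in the result was not tested beyond these fits. The score of 10 oligodendrocyte markers lay between 5.89 and 6.63 in AL mice at 5 months and between 4.72 and 5.92 at 15 months, and with it as a covariate the fold change was -0.35 (limma adjusted p = 0.0384). The score of 10 endothelial markers lay between 3.50 and 3.81 at 5 months and between 3.39 and 3.87 at 15 months, and the fold change with it was -0.40 (limma adjusted p = 0.00928).

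**Figure D2:**
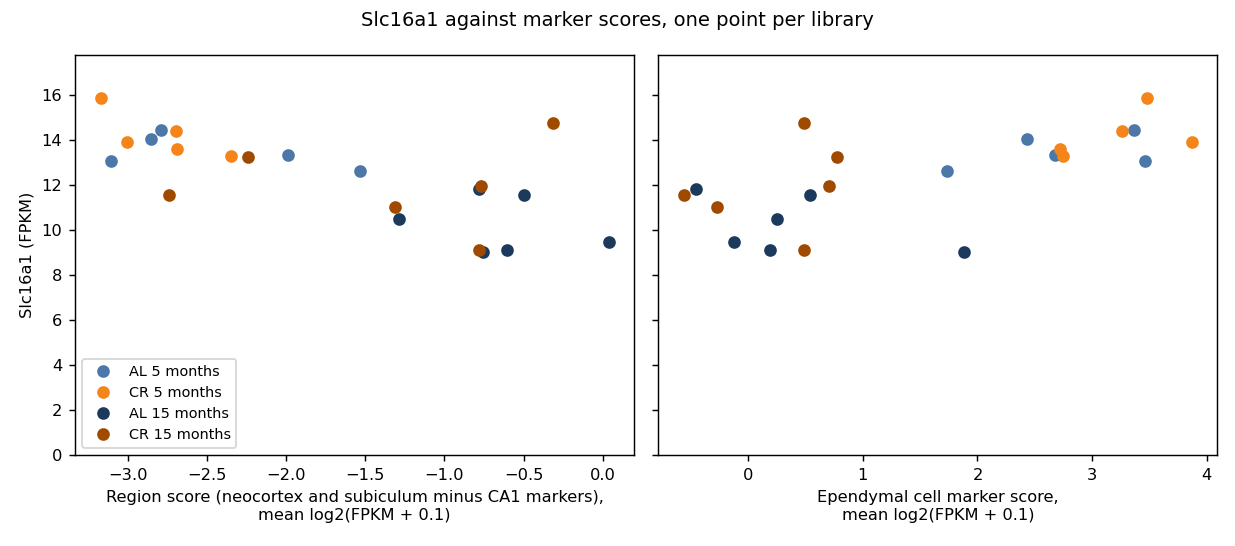
Slc16a1 in FPKM (y axis) in each of the 22 libraries against the region score (left) and the ependymal cell score (right), both as mean log2(FPKM + 0.1), with the 4 groups in different colours. The AL libraries at 15 months sit at region scores of -1.29 to 0.04 and at Slc16a1 levels of 9.04 to 11.8 FPKM, while the AL libraries at 5 months sit at -3.10 to -1.53 and 12.6 to 14.4 FPKM.

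Bdh1 encodes the mitochondrial 3-hydroxybutyrate dehydrogenase, which oxidizes the main circulating ketone body to acetoacetate (chromosome 16, 31422280 to 31458901, plus strand). In AL mice it was measured at 18.9, 21.5, 20.7, 21.8 and 21.2 FPKM at 5 months and at 17.3 to 21.7 FPKM with a median of 19.4 at 15 months. In CR mice it was measured at 18.7, 18.3, 20.1, 18.0 and 22.5 FPKM at 5 months and at 16.1 to 19.8 FPKM with a median of 17.2 at 15 months. At each age the CR median lay below the AL median, with overlapping libraries. The log2 fold change of CR against AL averaged over both ages was -0.13 (95% interval -0.23 to -0.023), with a limma p of 0.0194 before adjustment and 0.315 after it, and an exact permutation p of 0.0168. At 15 months it was -0.16 (limma adjusted p = 0.241, exact permutation p = 0.0455), and 1 of 6 CR mice exceeded the median of the AL mice. Without replicate 4 of the CR mice at 5 months, the highest Bdh1 value of all libraries, the averaged difference was -0.15 (limma adjusted p = 0.185). The diet difference at 5 months was -0.095 with that library and -0.15 without it. With age, Bdh1 fell short of a call in both diets, at -0.089 in AL mice and -0.15 in CR mice, or -0.098 in CR mice without that library.

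Oxct1 encodes the succinyl-CoA transferase SCOT, which activates acetoacetate and without which a tissue cannot burn ketone bodies (chromosome 15, 4026383 to 4155344, plus strand). Its levels were 102, 107, 105, 95.0 and 105 FPKM in AL mice at 5 months and 96.6, 98.9, 102, 91.9 and 113 FPKM in CR mice at 5 months. At 15 months they ran from 89.6 to 112 FPKM with a median of 99.0 in AL mice and from 85.9 to 106 FPKM with a median of 103 in CR mice. The highest and lowest of the 4 group means differed by 4.06%, the smallest such gap among the 8 genes. The log2 fold changes were -0.046 and -0.026 with age in AL and CR mice, and -0.035 and -0.014 for CR against AL at 5 and 15 months. Replicate 4 of the CR mice at 5 months had the highest Oxct1 value of all libraries. Without it the log2 fold change was 0.017 with age in CR mice and -0.077 for CR against AL at 5 months. The 95% interval of the averaged diet difference reached from -8.13% to 5.22%, so that larger changes of the transcript with diet lie outside the interval.

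Angptl4 encodes a secreted protein that holds back lipoprotein lipase and is a PPAR target induced by fasting in fat and liver (chromosome 17, 33773750 to 33781830, minus strand). In AL mice at 5 months it was measured at 1.99, 1.77, 2.31, 1.69 and 2.17 FPKM, and in CR mice of that age at 2.01, 1.74, 1.97, 2.42 and 1.56 FPKM. At 15 months it ran from 0.839 to 3.01 FPKM with a median of 2.56 in AL mice and from 0.862 to 2.71 FPKM with a median of 1.59 in CR mice. The spread between mice was thus larger at 15 than at 5 months in both diets, with SDs of 0.894 and 0.726 against 0.261 and 0.326 FPKM, a difference that was not tested. CR against AL at 15 months gave the lowest log2 fold change of any of the 8 genes in any comparison, -0.41, but its 95% interval reached from -0.99 to 0.17 (limma adjusted p = 0.472, exact permutation p = 0.29). For this gene the data leave room for a loss of 49.6% as well as a gain of 12.8%.

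Cpt1a and Acadm carry fatty acids into beta-oxidation, Cpt1a by loading them on carnitine at the outer mitochondrial membrane and Acadm, the medium-chain acyl-CoA dehydrogenase, by the first oxidation step inside. Cpt1a lies on chromosome 19 from 3322334 to 3385733 on the plus strand and Acadm on chromosome 3 from 153922357 to 153944632 on the minus strand. These were the members whose promoter windows held a nuclear receptor core, 2 of the 9 windows that RefSeq gave for 7 of the 8 genes (all but Angptl4), and they are printed for that reason with the core in capitals. The Cpt1a window is chr19:3323051-3323350 on the plus strand and the Acadm window is chr3:153944594-153944893 on the minus strand.
Cpt1a: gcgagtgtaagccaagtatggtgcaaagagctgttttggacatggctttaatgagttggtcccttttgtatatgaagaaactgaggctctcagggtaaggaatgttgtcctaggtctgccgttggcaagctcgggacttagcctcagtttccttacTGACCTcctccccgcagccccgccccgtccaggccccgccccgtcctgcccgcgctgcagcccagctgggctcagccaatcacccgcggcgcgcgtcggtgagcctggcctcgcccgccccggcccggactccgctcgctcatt
Acadm: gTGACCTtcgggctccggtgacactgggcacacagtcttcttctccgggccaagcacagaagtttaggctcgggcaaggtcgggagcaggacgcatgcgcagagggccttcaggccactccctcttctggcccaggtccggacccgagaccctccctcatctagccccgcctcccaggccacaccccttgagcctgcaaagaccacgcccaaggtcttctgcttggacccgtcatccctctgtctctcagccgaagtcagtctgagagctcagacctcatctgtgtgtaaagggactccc
In both the core reads TGACCT on the strand of the gene, which is AGGTCA on the other strand. It starts at base -94 from the RefSeq start of Cpt1a and at base -249 from that of Acadm. The RefSeq start of Cpt1a differs from that of the gene coordinates given above, and the whole Cpt1a window lies inside those coordinates. Over all windows 16.3% held the nuclear receptor core, beside 2 of these 9. A pair of cores 1 base apart, the usual PPAR element, was in none of the 9 windows and in 0.0396% of all windows. The glucocorticoid core was in none of the 9 and in 19.0% of all windows. These matches are letters in a window, and no binding was measured.

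Cpt1a was measured at 8.01, 7.13, 9.02, 8.10 and 9.63 FPKM in AL mice at 5 months and at 7.60, 6.82, 5.84, 7.76 and 13.7 FPKM in CR mice at 5 months. The last value stands far above the other CR mice and comes from replicate 4, the library with the choroid plexus score of 4.94. At 15 months Cpt1a ran from 6.49 to 10.4 FPKM with a median of 7.62 in AL mice and from 6.26 to 9.02 FPKM with a median of 7.70 in CR mice. The log2 fold change of CR against AL was -0.063 at 5 months with that library (95% interval -0.41 to 0.29) and -0.26 without it (limma adjusted p = 0.914), and -0.070 at 15 months. The age difference was -0.086 for AL and -0.093 for CR mice, and 0.10 for CR mice without that library. None of these was called, and the part of the choroid plexus markers in the values of that library was not tested.

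Acadm was measured at 20.2, 20.9, 21.3, 20.7 and 21.4 FPKM in AL mice at 5 months, with an SD of 0.473 FPKM or 2.26% of the mean, the smallest such share in any group of the 8 genes. The 6 AL libraries at 15 months ran from 16.9 to 20.5 FPKM with a median of 18.5, and none of them lay above the younger median. The log2 fold change with age in AL mice was -0.16 (95% interval -0.32 to 0.011), which was not called (limma adjusted p = 0.171, exact permutation p = 0.0152). In CR mice Acadm was measured at 18.7, 21.4, 21.8, 20.9 and 26.9 FPKM at 5 months, the last again replicate 4, and at 19.1 to 25.3 FPKM with a median of 20.1 at 15 months. At 15 months the level in all 6 CR mice exceeded the median of the AL mice, with a log2 fold change of 0.16 (95% interval -0.0018 to 0.32, limma adjusted p = 0.297, exact permutation p = 0.0498). At 5 months the diet difference was 0.059 with replicate 4 and -0.017 without it.

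Pdk2 and Pdk4 encode kinases that switch off pyruvate dehydrogenase and so spare glucose when fat or ketone bodies are burned. Pdk2, the common brain form, lies on chromosome 11 from 95026258 to 95041354 and Pdk4, the form that rises with fasting in muscle and liver, on chromosome 6 from 5483351 to 5496309, both on the minus strand. Pdk2 was measured at 57.3, 61.3, 53.0, 49.0 and 56.6 FPKM in AL mice and at 60.3, 65.6, 63.9, 58.4 and 60.3 FPKM in CR mice at 5 months. All 5 CR mice exceeded the median of the AL mice, and the groups overlapped. The log2 fold change was 0.16 (95% interval 0.012 to 0.30), the only one of the 8 genes with an unadjusted limma p under 0.05 in this comparison (p = 0.0356, adjusted p = 1), with an exact permutation p of 0.0317. This depended on the processing. With a common median or quantile normalization 0 of the 8 genes had an unadjusted limma p under 0.05 there. The same held with the endothelium, oligodendrocyte or ependymal cell score as a covariate, and in some fits that left out 1 library. At 15 months the groups lay together, from 50.7 to 65.5 FPKM with a median of 58.1 in AL mice and from 55.3 to 61.3 FPKM with a median of 59.3 in CR mice, a log2 fold change of 0.012 (95% interval -0.12 to 0.15). The change of the diet difference with age was -0.14 and was not called (limma adjusted p = 0.724).

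Pdk4 was measured at 5.33, 4.56, 5.60, 9.25 and 11.0 FPKM in AL mice and at 6.23, 4.48, 5.06, 6.45 and 5.82 FPKM in CR mice at 5 months. The 2 highest AL libraries of this age lay above all the CR libraries, and the other 3 lay among them. At 15 months Pdk4 ran from 4.57 to 8.49 FPKM with a median of 6.10 in AL mice and from 4.51 to 12.3 FPKM with a median of 6.37 in CR mice. The highest library, replicate 5 of the CR mice, also had the highest oligodendrocyte score of all libraries, 6.83, and their connection was not tested. The log2 fold change of CR against AL was -0.27 at 5 months (95% interval -0.78 to 0.23) and 0.094 at 15 months (95% interval -0.37 to 0.56), or -0.082 at 15 months without that library. None of the Pdk4 differences was called, and the intervals are wide enough to hold a gain of 47.1% at 15 months.

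**Figure D3:**
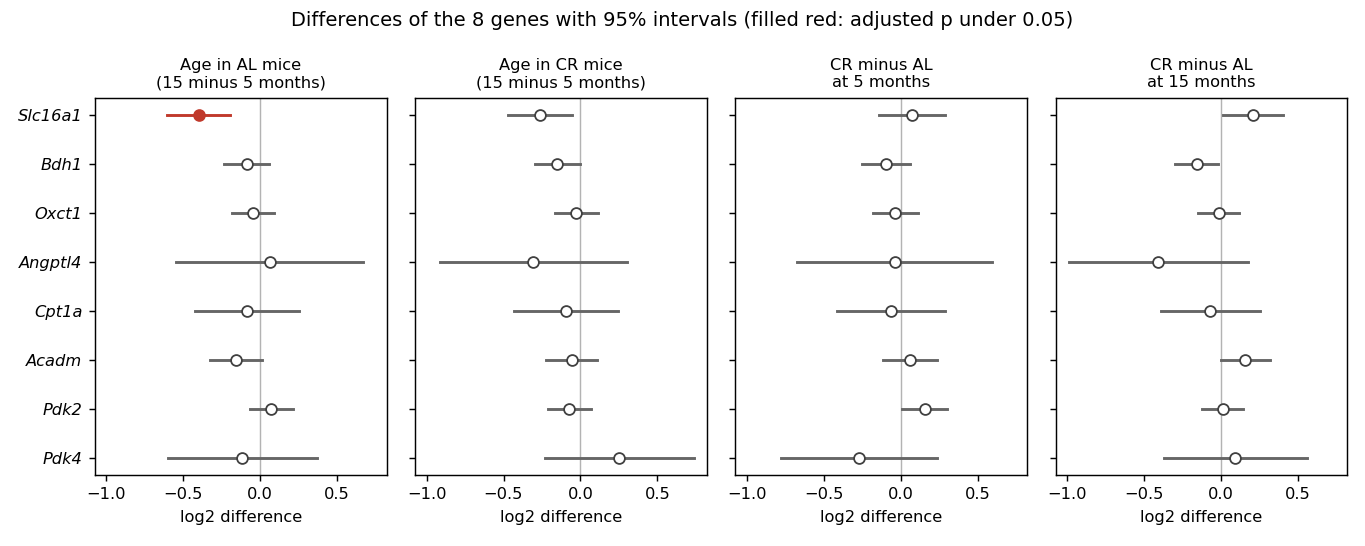
Log2 differences (x axis) of the 8 genes in 4 comparisons, as points with 95% intervals from limma, with differences called at an adjusted p under 0.05 in filled red. Slc16a1 with age in AL mice, at -0.40, is the only called difference, and the intervals of Angptl4, Pdk4 and Cpt1a are the widest.

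The counts of the 8 genes are set beside the shares over all tested genes, where 1 of 8 genes is 12.5%. At an unadjusted limma p under 0.05 there was 1 of 8 with age in AL mice (Slc16a1), where 35.2% of all genes passed. With age in CR mice 2 of 8 passed (Slc16a1 and Bdh1), against 18.0% of all genes, and 0 were called, against 3.36%. In CR against AL at 5 months 1 of 8 passed (Pdk2), against 4.65%, and 0 were called, as for all genes (0%). In CR against AL at 15 months 2 of 8 passed (Bdh1 and Slc16a1), against 17.1%, and 0 were called, against 0.742%. In the average over both ages 1 of 8 passed (Bdh1), against 12.1%, and 0 were called, against 0.389%. In the interaction none of the 8 passed, against 7.66%, and 0 were called, as for all genes (0%). Apart from Slc16a1 with age in AL mice, no gene of the 8 had groups without overlap, whereas this held for 3.26% of all genes with age in CR mice, 1.36% for diet at 5 months and 0.984% for diet at 15 months.

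The median log2 fold change of the 8 genes was -0.088 with age in AL mice and -0.083 with age in CR mice, with 6 and 7 of the 8 below 0. For CR against AL it was -0.037 at 5 months and -0.00095 at 15 months. The medians over all tested genes lay between -0.0018 and 0.0045 in all 6 comparisons. The intervals show how large a change the data could hide. For the averaged diet difference the 95% intervals of 7 of the 8 genes lay within 0.5 log2 units of 0, and those of all 8 within 1 log2 unit. For the other comparisons of age and diet 5 or 6 of the 8 intervals lay within 0.5 and all 8 within 1, and for the interaction 6 of 8 lay within either limit.

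The order of the group means differed from gene to gene. Slc16a1 ran, from high to low, CR 5 months, AL 5 months, CR 15 months and AL 15 months, and Bdh1 ran AL 5 months, AL 15 months, CR 5 months and CR 15 months. Acadm ran CR 5 months, CR 15 months, AL 5 months and AL 15 months, and Pdk2 had both CR groups above both AL groups as well. Neighbours in these orders were compared in 24 pairs over the 8 genes. The libraries overlapped in every one of the 24, with exact permutation p from 0.0152 (Acadm, AL at 5 against 15 months) to 0.983.

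Around the 8 genes stand 117 other genes of fuel use and its control, in 11 lists, of which 111 could be tested. For CR against AL 0 of 111 were called at 5 months, at 15 months and in the average, and 0 in the interaction. The numbers with an unadjusted limma p under 0.05 were 6, 16, 18 and 7. With age in AL mice 9 were called higher and 18 lower, 24.3% of those tested beside 20.6% of all genes. With age in CR mice 1 was higher, Pparg, and 1 lower, the peroxisomal oxidase Acox2, which is named although its mean FPKM was at most 0.303 in any group compared. With the region score as a covariate none of the 111 was called with age in AL mice, and with the ependymal cell score 1 was. The count was 15 without replicate 2 and 17 without replicate 4 of the AL mice at 5 months.

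Among the transport and uptake genes 1 rose and 1 fell with age in AL mice. Over all tested genes 20.6% were called in this comparison, 9.97% as lower. Of 6 tested monocarboxylate carriers and partners 1 was called, Slc16a3 (MCT4, the lactate exporter of astrocytes), which rose from 1.06 ± 0.233 (SD, n = 5) to 3.62 ± 2.02 FPKM (SD, n = 6), a log2 fold change of 1.48 (limma adjusted p = 0.0167). Slc16a1, another carrier of the family, fell in the same mice. Of 12 genes of fatty acid uptake and activation 1 was called, Lpl (lipoprotein lipase, which Angptl4 inhibits), which fell from 33.9 ± 10.8 to 11.9 ± 2.99 FPKM, a log2 fold change of -1.48 (limma adjusted p = 0.00173). Of 11 tested genes of lipid droplets and lipase control, the list nearest to Angptl4, none was called, and 1 had an unadjusted p under 0.05. Of 6 genes of the carnitine shuttle 1 was lower, the brain form Cpt1c (log2 fold change -0.23), and of 7 tested genes of ketone body synthesis and use 1 was higher, Oxct2b, a testis-type relative of Oxct1 with 0.416 FPKM in AL mice at 15 months, which shares sequence with its copy Oxct2a and is uncertain for that reason. Oxct2b, Acox2, Hadhb, Pdk3, Ddit4, Mt1 and Mt2 are named to complete a count and were chosen after their values were seen.

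In the mitochondrial beta-oxidation list 3 of 17 genes were lower and 1 was higher with age in AL mice. This was a share of 23.5%, and in the pyruvate dehydrogenase list below it was 33.3%. Over all tested genes 20.6% were called, 9.97% as lower. Etfb and Etfdh, which pass electrons from Acadm and its relatives to the respiratory chain, fell by 0.39 and 0.32 on the log2 scale, Hadhb, a subunit of the trifunctional enzyme, fell by 0.27, and Acad10 rose by 0.39 at a level near 1.16 FPKM. In peroxisomes, where very long fatty acids are shortened, 3 of 10 genes were lower, with Abcd3 at -0.24, Scp2 at -0.34 and Acox2 at -0.99. The pyruvate dehydrogenase list, which surrounds Pdk2 and Pdk4, held 3 lower genes and 1 higher gene out of 12. Pdhb, a subunit of the enzyme itself, fell from 104 ± 4.62 to 85.0 ± 5.51 FPKM (limma adjusted p = 0.0048) and Pdhx, its binding subunit, by 0.28 on the log2 scale. Pdk3, a kinase of the same family as Pdk2 and Pdk4, fell by 0.23. Pdp1, a phosphatase that reactivates the complex, rose by 0.58 on the log2 scale, with overlapping groups and an exact permutation p of 0.0519.

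Among 10 PPAR receptors and coactivators 2 rose with age in AL mice, a share of 20% beside 20.6% called over all tested genes. For the further PPAR targets below the share called was 11.8%, and for the glucocorticoid-induced genes 50%. Pparg, better known from fat cells, rose from 0.717 ± 0.282 (SD, n = 5) to 2.94 ± 0.929 FPKM (SD, n = 6), a log2 fold change of 1.92 with limma adjusted p = 0.000173, and in CR mice by 1.10 (limma adjusted p = 0.0201). At 15 months Pparg was lower in CR than in AL mice by a log2 value of -0.80, which was not called (limma adjusted p = 0.118, exact permutation p = 0.0108). The coactivator Ppargc1b rose by 0.57 on the log2 scale. Of 17 tested further PPAR targets 2 were lower, the thioesterases Acot1 at -0.58 and Acot2 at -0.61, near-identical neighbours between which reads may be divided. In the list of 14 glucocorticoid-induced genes 5 were lower, with Fkbp5, a chaperone of the receptor, at -0.80 and Errfi1, a feedback inhibitor of EGF receptor signalling, at -0.68, followed by Ddit4 at -0.63, Mt2 at -0.61 and Mt1 at -0.53, and 2 were higher, the cell cycle inhibitor Cdkn1a at 1.06 and the clock gene Per1 at 0.57. The region and ependymal cell scores differed between the same groups, and their part in these list results was not tested beyond the counts given with them as covariates.

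**Figure D4:**
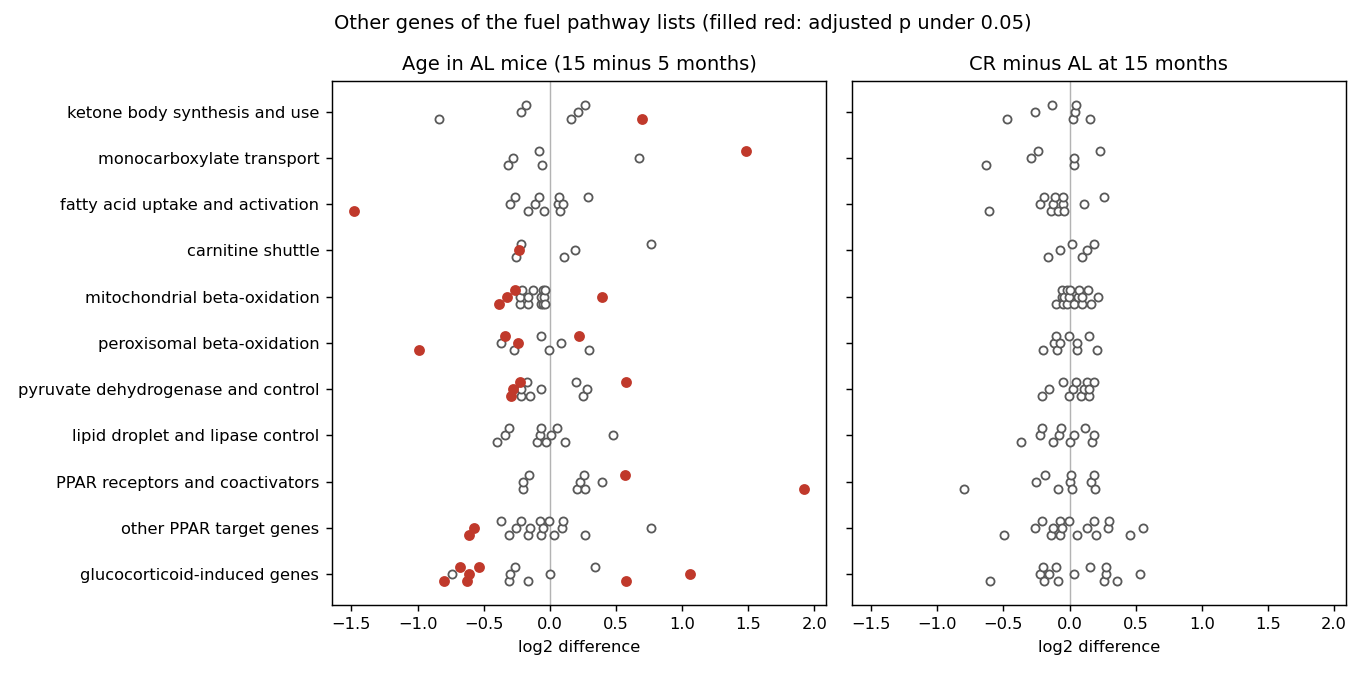
Log2 differences (x axis) of the tested genes of the 11 fuel lists, 1 row per list, with age in AL mice (left) and for CR minus AL at 15 months (right), and called genes in filled red. With age in AL mice 27 of 111 genes are called, from Lpl at -1.48 to Pparg at 1.92, and none is called for diet at 15 months.

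The genes most like each of the 8 over the 22 libraries were ranked by Pearson correlation of log2(FPKM + 0.1) among 13455 genes. The points share group, dissection and library, and no test is attached. Slc16a1 was most like Map4k3 (r = 0.86), Errfi1 (0.85) and Lurap1l (0.85), and with the group means subtracted these values were 0.72, 0.64 and 0.61. Bdh1 was most like Fbl (0.84), Tbc1d7 (0.81) and Fbxl4 (0.80), and Oxct1 like Paics (0.79), Zfp260 (0.77) and Arf2 (0.75). Cpt1a was nearest to Abcc4 (0.85, and 0.91 within groups), Klhdc7a (0.84) and Naglu (0.83), and Acadm to Ggh (0.87), Vimp (0.86) and Ppib (0.83). Pdk2 was nearest to Igfbp3 (0.75), Gm19345 (0.73) and Gdap1l1 (0.71), and Pdk4 to Adipor2 (0.83), Arrdc2 (0.81) and Usp54 (0.77). Angptl4 was nearest to Mylk (0.81), Slc6a11 (0.75) and Pdgfra (0.73). None of the 8 was among the 3 genes most like another of the 8. Some of the 8 still varied together. The highest correlations between them were Bdh1 with Oxct1 (0.68, and 0.74 within groups), Cpt1a with Acadm (0.53 and 0.64) and Pdk2 with Angptl4 (0.46 and 0.59). The lowest was Pdk2 with Pdk4 (-0.38, and -0.32 within groups).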

How the data were processed

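The authors aligned paired reads to mm10 with TopHat, removed duplicates with Picard and estimated the deposited FPKM with Cufflinks, corrected for fragment bias and multiply mapped reads. The annotation release and strand setting are not given in the sources used here. Whole reads could not be recovered (at most 0.425% of low genes lay on a common ratio). The depth of each library is therefore unknown beyond the average that the paper gives, and precision rests on the spread between mice. All genes whose mean reached 0.1 FPKM were fitted as log2(FPKM + 0.1) with limma 3.58.1 (R 4.3.3, eBayes with trend), 4 groups in 1 fit, with Benjamini-Hochberg adjustment over all 16978 genes and calls under 0.05. A log2 fold change understates the change of low genes. The 8 genes were also compared by exact two-sided permutation of mean log2 values, diet being permuted within age for the average. The steps were tested on simulated data. For limma the simulated differences were 1 log2 unit, larger than any estimated for the 8 genes, so smaller differences were not covered. The genes, lists and tests were chosen with earlier results of these data known. From the lists, at most the 2 largest increases and decreases with age among called genes of at least 1 FPKM in either group were named, besides any gene called for diet. A list gene that the rule names is not reported here. The replicate numbers do not pair the mice: over 31 same-numbered pairs the deviations correlated from -0.139 to 0.163, above 0.1 in 2. Coordinates are from GENCODE M21 on GRCm38, promoters from RefSeq on GRCm38.p6. Alternatives were other pseudocounts, filters, scalings and fits, marker score covariates and each library left out.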

Additional observations from a re-analysis of the deposited data

Results flagged for a closer look

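A gap rule (Dixon's, at 95%) was applied to the FPKM of the 8 genes and the 20 named list genes in each group, 112 sets in all, and marked 6, close to the number that chance gives at about 1 in 20 sets. Among the 8 genes, Cpt1a was marked at 13.7 FPKM in replicate 4 of the CR mice at 5 months, the library with the highest choroid plexus score, and Pdk4 at 12.3 FPKM in replicate 5 of the CR mice at 15 months, the library with the highest oligodendrocyte score. Without these libraries the log2 fold change of CR against AL was -0.26 for Cpt1a at 5 months and -0.082 for Pdk4 at 15 months, and neither was called. Among the list genes, Pdhx stood high at 24.2 FPKM in replicate 5 of the AL mice at 15 months, Scp2 low at 43.9 FPKM in replicate 0 of the CR mice at 5 months and high at 67.3 FPKM in replicate 2 of the CR mice at 15 months, and Slc16a3 high at 1.11 FPKM in replicate 3 of the CR mice at 5 months.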

How the results depend on the processing

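Over all alternatives the 8 genes gave 1808 values, of which 36 passed the threshold, all of them Slc16a1 with age in AL mice. That call was lost, and the count of called genes fell to 0, with the region score covariate and with the ependymal cell score covariate, the latter chosen after seeing the data like the oligodendrocyte score. It held in all 22 fits that left out 1 library. The fit with the replicate number as a block gave -0.39 (limma adjusted p = 0.0118) and changed no other call of the 8, although it gave 323 calls over all genes for diet at 15 months against 126 without it. Calls over all genes with age in AL mice were 3502, and 14 with the region score covariate. For diet at 15 months they ran from 15 to 732 when 1 library was left out, and a separate fit gave 0. The region score covariate gave 7 calls for diet at 15 months, and the astrocyte score covariate 17. Under the region score covariate 0 of the 8 genes had an unadjusted limma p under 0.05 for diet at 15 months, and 0 in the average. With age in CR mice 570 genes were called, 0 with the choroid plexus or ependymal score. List genes called with age in AL mice ranged from 0 to 32, and without replicate 0 of the CR mice at 15 months 5 were called for diet at that age.

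Signs turned 67 times, in values that were not called, and the cause was not tested. With the region score, Cpt1a with age was 0.19 in AL and 0.12 in CR mice, Pdk4 with age in AL mice 0.099, Angptl4 -0.027, and Oxct1 0.045 for diet at 15 months and 0.019 averaged. With the choroid plexus score, Cpt1a with age was 0.18 in AL and 0.46 in CR mice and 0.27 in the interaction, Oxct1 and Acadm with age in CR mice were 0.037 and 0.12, and Acadm for diet at 5 months was -0.024. With the ependymal score, Cpt1a with age was 0.14 in AL and 0.19 in CR mice and 0.0503 in the interaction, and Pdk2 and Angptl4 with age in CR mice were 0.0695 and 0.26. With the oligodendrocyte score, Cpt1a, Pdk4 and Angptl4 with age in AL mice were 0.00735, 0.27 and -0.28, and Pdk4 for averaged diet 0.013. With the endothelium score, Oxct1 with age in CR mice was 0.019, and Cpt1a and Angptl4 for diet at 5 months were 0.036 and 0.16. With the astrocyte score the same values of Cpt1a and Angptl4 were 0.023 and 0.12, and Pdk2 for diet at 15 months was -0.025. Quantile normalization gave Oxct1 with age 0.042 in AL and 0.018 in CR mice and -0.024 in the interaction, Cpt1a 0.016 in the interaction, Pdk2 for diet at 15 months -0.016 and Angptl4 with age in AL mice -0.0400. A common median gave Oxct1 0.012 for diet at 15 months and Cpt1a 0.034 in the interaction.

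With 1 library left out at a time, the log2 fold change of Oxct1 ranged from -0.057 to 0.017 with age in CR mice, from -0.044 to 0.025 for diet at 15 months and from -0.011 to 0.063 in the interaction. Cpt1a ranged from -0.20 to 0.10 with age in CR mice, from -0.26 to 0.048 for diet at 5 months, from -0.12 to 0.0098 at 15 months and from -0.12 to 0.19 in the interaction. Pdk2 ranged from -0.027 to 0.047 for diet at 15 months, and Pdk4 from -0.25 to 0.059 with age in AL mice and from -0.082 to 0.20 for diet at 15 months. Acadm ranged from -0.11 to 0.018 with age in CR mice and from -0.017 to 0.11 for diet at 5 months, and Angptl4 from -0.044 to 0.30 with age in AL mice and from -0.12 to 0.031 for diet at 5 months. For Angptl4 and Pdk4 the spread between mice limits what could be seen.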
